A study of Homo sapiens with 16 samples.

Results

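The loci of BHLHE40 and BHLHE41, a pair of genes for related transcriptional repressors, were examined in chromatin immunoprecipitation sequencing (ChIP-seq) peak lists of the hypoxia-inducible factors HIF-1α and HIF-2α. Peaks were chosen by position: those with a centre within 100 kb of a protein-coding start site of either gene. This gave 58 of the 23398 peaks in the 16 lists. Peaks that shared at least 1 bp were merged across libraries, which gave 11 sites, of which 5 were at BHLHE40 and 6 at BHLHE41. Both loci were selected on peaks in these lists, so the presence and score of a peak at them are described without a test.

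The lists came from 4 human cancer cell lines, A549 (lung), HCT116 (colon), PC3 (prostate) and T47D (breast). All were exposed to hypoxia, 0.5% oxygen for 16 hours, before ChIP with an antibody to HIF-1α (labelled HIF1A) or HIF-2α (labelled HIF2A), and each of the 8 groups, a cell line with an antibody, had 2 replicates. No list from cells in normal oxygen was used here, so the values show where binding was called in hypoxia and not how it changed. The labels do not say whether replicates came from separate cultures, so the spread between them may be technical. The lists held 275 to 4505 peaks and no read totals, so the sequencing depth behind each value is unknown. A peak that is absent from a short list cannot be told apart from one missed at lower depth.

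HIF is a transcription factor made of an oxygen-regulated α subunit, either HIF-1α or HIF-2α, and the constant partner HIF-1β. In low oxygen the α subunit escapes degradation and the pair binds short DNA elements that hold the core ACGTG or GCGTG. BHLHE40 (also called DEC1) and BHLHE41 (DEC2) are basic helix-loop-helix proteins that bind the E-box CACGTG, recruit repressors and act in hypoxia responses and in the circadian clock, where they compete with CLOCK and BMAL1 for the same element. Both are known hypoxia-inducible genes.

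BHLHE40 (ENSG00000134107.5_6) lies on the plus strand at chr3:5021122-5027008 of GRCh37 and has 1 annotated coding start. BHLHE41 (ENSG00000123095.6_8) lies on the minus strand at chr12:26272963-26277970, also with 1 coding start. Distances below are from these starts, and a plus sign means the direction of transcription. Each locus had 1 promoter site, meaning a merged site centred within 1000 bp of the start or spanning it, and the other 9 sites were distal. The sequences of the sites on which the description turns are given next, read from GRCh37 on the strand of the gene, with ACGTG and GCGTG on either strand in capitals (so CACGT and CACGC on the strand shown also appear in capitals). For each gene the promoter window runs from 250 bp before the start up to the start (chr3:5020872-5021121 and chr12:26277971-26278220). The windows of distal sites are 200 bp long and centred on the median of the peak centres of the libraries with a peak there. They show the site common to all libraries at +7.4 kb from BHLHE40 (chr3:5028595-5028794), the site with both A549 HIF-2α libraries at +44.0 kb (chr3:5065090-5065289), the E-box site at +10.6 kb from BHLHE41 (chr12:26267313-26267512) and the core-free centre at +33.9 kb (chr12:26244118-26244317).
BHLHE40 promoter: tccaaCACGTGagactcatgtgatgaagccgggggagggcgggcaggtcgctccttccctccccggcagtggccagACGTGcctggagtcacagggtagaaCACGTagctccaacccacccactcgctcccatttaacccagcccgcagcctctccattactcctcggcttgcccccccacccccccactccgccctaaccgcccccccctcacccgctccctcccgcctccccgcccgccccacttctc
BHLHE40 +7.4 kb: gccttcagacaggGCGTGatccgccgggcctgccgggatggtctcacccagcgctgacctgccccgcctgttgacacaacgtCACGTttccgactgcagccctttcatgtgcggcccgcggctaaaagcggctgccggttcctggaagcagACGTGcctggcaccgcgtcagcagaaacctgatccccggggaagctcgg
BHLHE40 +44.0 kb: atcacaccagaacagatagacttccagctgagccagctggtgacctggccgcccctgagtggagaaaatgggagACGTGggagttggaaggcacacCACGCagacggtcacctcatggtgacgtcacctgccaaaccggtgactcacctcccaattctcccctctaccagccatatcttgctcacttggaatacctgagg
BHLHE41 promoter: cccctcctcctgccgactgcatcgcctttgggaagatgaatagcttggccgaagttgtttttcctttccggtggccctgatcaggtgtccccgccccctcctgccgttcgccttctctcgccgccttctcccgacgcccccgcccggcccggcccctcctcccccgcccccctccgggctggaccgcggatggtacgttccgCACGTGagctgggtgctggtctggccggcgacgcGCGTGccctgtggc
BHLHE41 +10.6 kb: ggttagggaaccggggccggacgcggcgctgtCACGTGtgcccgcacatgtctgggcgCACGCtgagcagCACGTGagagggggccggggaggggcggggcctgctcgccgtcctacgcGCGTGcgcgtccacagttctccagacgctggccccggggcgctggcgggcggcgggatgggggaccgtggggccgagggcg
BHLHE41 +33.9 kb: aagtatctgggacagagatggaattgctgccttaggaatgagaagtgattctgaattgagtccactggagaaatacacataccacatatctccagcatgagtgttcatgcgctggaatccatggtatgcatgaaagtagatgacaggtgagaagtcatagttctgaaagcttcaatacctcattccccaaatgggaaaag

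The core ACGTG, the core GCGTG and the E-box CACGTG were searched on both strands, and since the E-box reads the same on both, each E-box counts as 2 copies of ACGTG. The BHLHE40 promoter window held 4 copies of ACGTG, of which 2 were those of its single E-box, and 0 copies of GCGTG. Of 19821 protein-coding promoters of the same length, 1.73% held at least 3 copies of ACGTG, and 7.14% held an E-box. The BHLHE41 window also held 1 E-box, close to the start, which supplied both of its copies of ACGTG, along with 1 copy of GCGTG, a core found in 36.6% of promoters.

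The BHLHE40 promoter site spanned chr3:5019453-5022558 (3106 bp) and had a peak in all 16 libraries. The score is the value the peak caller gave each peak, and its percentile is the percent of peaks in the same library that scored as high or lower. In A549, the HIF-1α peaks scored 424 and 631 (percentiles 95.3 and 96.2) and the HIF-2α peaks 2828 and 2460.5, the highest score of each list. In HCT116, the HIF-1α scores were 1328 and 1058 (percentiles 99.2 and 99.3) and the HIF-2α scores 571 and 526 (99.2 and 99.6). By rank within its list, the peak was number 19 and 25 with HIF-1α and number 1 in both HIF-2α lists of A549, and number 38 and 32 with HIF-1α and 11 and 5 with HIF-2α in HCT116. Scores are not compared between libraries, since their scale is not stated. In PC3, HIF-1α gave 375 and 1121 (percentiles 96.0 and 98.9) and HIF-2α 431 and 1067 (100 and 99.8). In T47D, HIF-1α gave 389.8 and 361 (93.8 and 92.1) and HIF-2α 366 and 521 (96.9 and 98.3). T47D HIF-1α was the group with the lowest percentiles at this site, and even there the peak was among the top 57 of 711.

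The mean percentile at the BHLHE40 promoter was 96.4% ± 2.63 (SD, n = 8 libraries) for HIF-1α and 99.2% ± 1.09 (SD, n = 8) for HIF-2α. The gap, HIF-2α minus HIF-1α, was 4.26 percentage points in A549 and 4.66 in T47D, 2.43 in PC3, and 0.140 in HCT116, where the replicates of the antibodies overlapped. A percentile depends on the length of the list, which in HCT116 was 4505 and 4465 peaks for HIF-1α against 1264 and 901 for HIF-2α. Among the 275 best peaks of each library, the number in the shortest list, the gap was 7.64 percentage points in A549 and 9.82 in HCT116. It was larger in T47D (15.1) and PC3 (17.5), and the antibodies overlapped in none of the 4 lines. This form restates the rank of the peak, and the 275 best are a smaller part of a longer list. When the 19821 protein-coding genes were ordered by mean percentile of their best promoter peak, with no peak counted as 0, BHLHE40 was number 1 over the HIF-2α libraries, number 22 over the HIF-1α libraries and number 2 over all 16. A promoter peak in all 8 HIF-2α libraries was found at 14 genes, in all 8 HIF-1α libraries at 107 and in all 16 at 12, BHLHE40 among them each time. Places 1 and 22 are therefore not on a like scale. The annotated body of an antisense long noncoding RNA, BHLHE40-AS1, covers the site's centre, so the peaks cannot be assigned to one of the 2 transcripts.

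**Figure D1:**
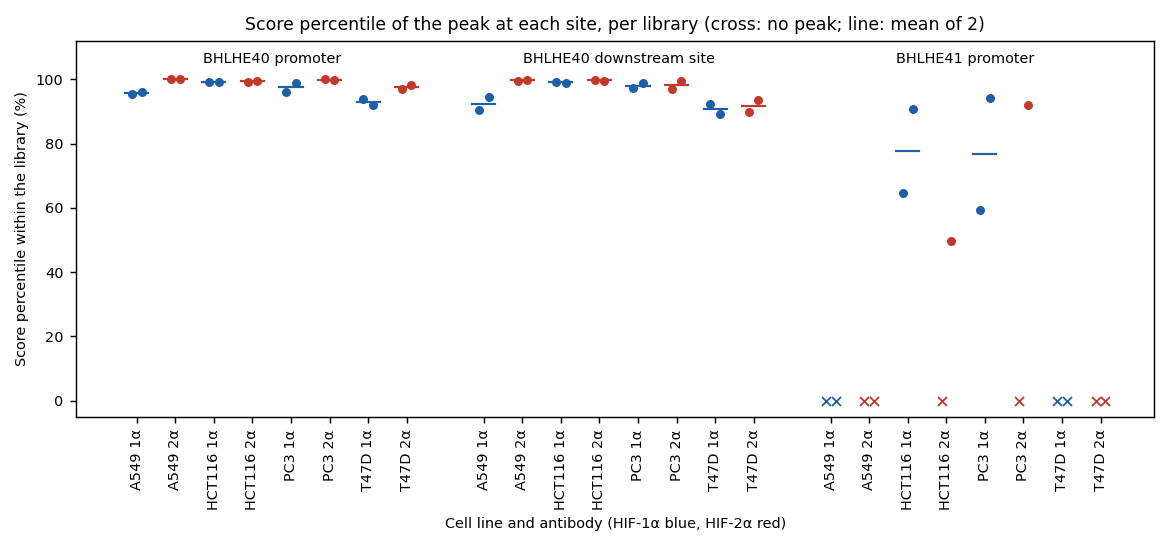
Score percentile within the library (vertical axis, percent) of the peak at the BHLHE40 promoter, the BHLHE40 site at +7.4 kb and the BHLHE41 promoter, for each cell line and antibody (HIF-1α blue, HIF-2α red). Points are libraries, lines the mean of 2 libraries with a peak, and crosses at 0 libraries with no peak. Both BHLHE40 sites were filled in all 16 libraries, with percentiles from 89.2 to 100, whereas the BHLHE41 promoter had a peak in 6.

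The distal site at +7.4 kb (chr3:5027455-5029501, 2047 bp) lies past the annotated end of BHLHE40, outside any annotated gene, and had BHLHE40 as its nearest coding start. It also had a peak in all 16 libraries. In A549, HIF-1α scored 229 and 495 (percentiles 90.3 and 94.6) and HIF-2α 1826 and 2016 (99.6 and 99.9). In HCT116, HIF-1α scored 1624 and 866 (99.3 and 98.9) and HIF-2α 1139 and 483 (99.9 and 99.3). Here HIF-2α lay above HIF-1α by percentile in both lines without overlap, by 7.28 percentage points in A549 and by 0.531 in HCT116, where the HIF-1α lists were the longer ones, unlike in A549. In PC3, HIF-1α scored 489 and 1045 (97.3 and 98.7) and HIF-2α 237 and 803 (97.1 and 99.5). In T47D, HIF-1α scored 338 and 290.3 (92.4 and 89.2) and HIF-2α 197 and 292 (89.8 and 93.6). The antibodies overlapped by percentile in PC3 and T47D, with gaps of 0.309 and 0.959 percentage points, and in both lines the HIF-1α lists were longer on average. With lists of equal length (the 275 best peaks), HIF-2α was above HIF-1α without overlap in all 4 lines, by 11.6 percentage points in A549 and 11.8 in T47D, and by 12.9 for PC3 and 13.5 for HCT116. The isoform gap at both BHLHE40 sites thus changed in size with the number of peaks counted. Its sign was the same in both forms, but both restate the same ranks. The 275 best are the whole of the shortest list and a small part of the longest, at 4505 peaks. A difference in score between isoforms was therefore not tested, and the depth behind the list lengths is unknown.

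The score of the distal site was 0.538 to 1.99 times that of the promoter in the same library, and it was the higher of the pair in 3 of 16 libraries. These were HCT116 HIF-1α replicate 2 (ratio 1.22), HCT116 HIF-2α replicate 2 (1.99) and PC3 HIF-1α replicate 1 (1.31). In each case the other replicate of the group had the promoter higher, with ratios of 0.819, 0.918 and 0.932, so no group had the distal site higher in both replicates. In A549 and T47D the promoter was higher in all 8 libraries. The peaks at the promoter were 1464 to 2924 bp wide and those at +7.4 kb 699 to 2005 bp wide.

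**Figure D2:**
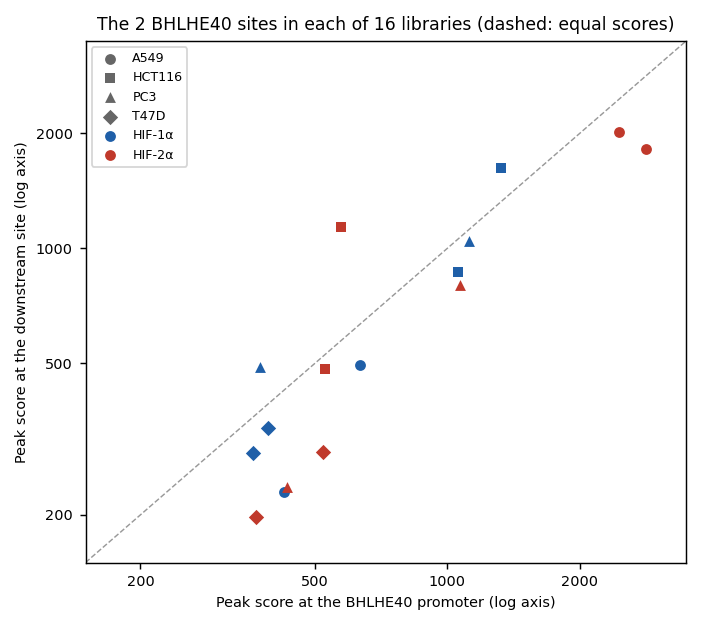
Peak score at the BHLHE40 promoter (horizontal) against that at +7.4 kb (vertical), both on log axes, with 1 point per library. Symbols give the cell line, colours the antibody, and the dashed line equal scores. The 3 libraries above the line have ratios of 1.22, 1.31 and 1.99. The score has no stated scale, so each point is read against the line and not against other points.

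Position within a site was not used in choosing the loci and was tested. The centre of a peak is the midpoint of its called interval, not its summit, so it moves with how far the interval extends. At the BHLHE40 promoter, the peak centres of individual libraries ran from -541 to 22.5 bp from the start, with a mean of -315 bp for HIF-1α and -406 bp for HIF-2α. The mean difference over cell lines, HIF-1α minus HIF-2α, was 91.2 bp (150.5 bp in A549, 274 in T47D, 38 in HCT116 and -97.2 in PC3). Set against relabelled libraries, it did not pass the threshold of 0.05 (exact permutation of antibody labels within cell lines, two-sided, p = 0.373, adjusted p = 0.373 over 2 tests). At +7.4 kb the mean position was 7597 bp for HIF-1α and 7546 bp for HIF-2α. The difference of 50.6 bp had the same sign in 3 of 4 lines, was 179 bp in A549 and between -5.5 and 18.5 bp in the others, and did not pass either (exact permutation p = 0.211, adjusted p = 0.373). The smallest p this test can give is 0.00154. Leaving out T47D HIF-1α replicate 2 gave 64.6 bp with an unadjusted exact permutation p of 0.0432, and leaving out all A549 libraries gave 7.75 bp (p = 0.75).

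The distance from each peak centre to the nearest HIF core was measured, and it was not compared with that of other positions in the same sites, which hold several cores. The median distance from centre to the nearest ACGTG was 51.5 bp (range 10 to 169.5 bp, 16 peaks) at the promoter and 15 bp (3 to 222 bp, 16 peaks) at +7.4 kb. The central 200 bp held ACGTG in 13 of 16 promoter peaks and in 15 of 16 peaks at +7.4 kb. Over all 58 peaks of both loci the share was 65.5%, and over all peaks of a library it ran from 27.6% to 52.1% with a median of 39.4%. The 58 peaks are not independent, since 32 of them come from the BHLHE40 promoter and the +7.4 kb site. Elsewhere the count was 4 of 5 at +44.0 kb from BHLHE40, 4 of 4 at +10.6 kb from BHLHE41 and 2 of 6 at the BHLHE41 promoter. It was 0 at every other site. The pooled share thus rests mainly on the BHLHE40 promoter and the +7.4 kb site and does not describe BHLHE41. The +7.4 kb site held no E-box, and its 4 copies of ACGTG were centred at 6699, 7557, 7626 and 7895 bp, of which the middle pair appears in the window printed above.

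The promoter and the +7.4 kb site shared a stretch of 13 bases, the longest shared run around an ACGTG among the 40 pairs of copies compared. It is centred at -172 bp in the promoter and at 7626 bp downstream, and can be read in both windows above.
Shared run: cagACGTGcctgg
It has 35 copies in GRCh37, and 2 or 3 peaks per library held it, these 2 sites being among them in every library. The run was looked for after the values of both sites had been seen, and it is given as a description of the sequence.

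**Figure D3:**
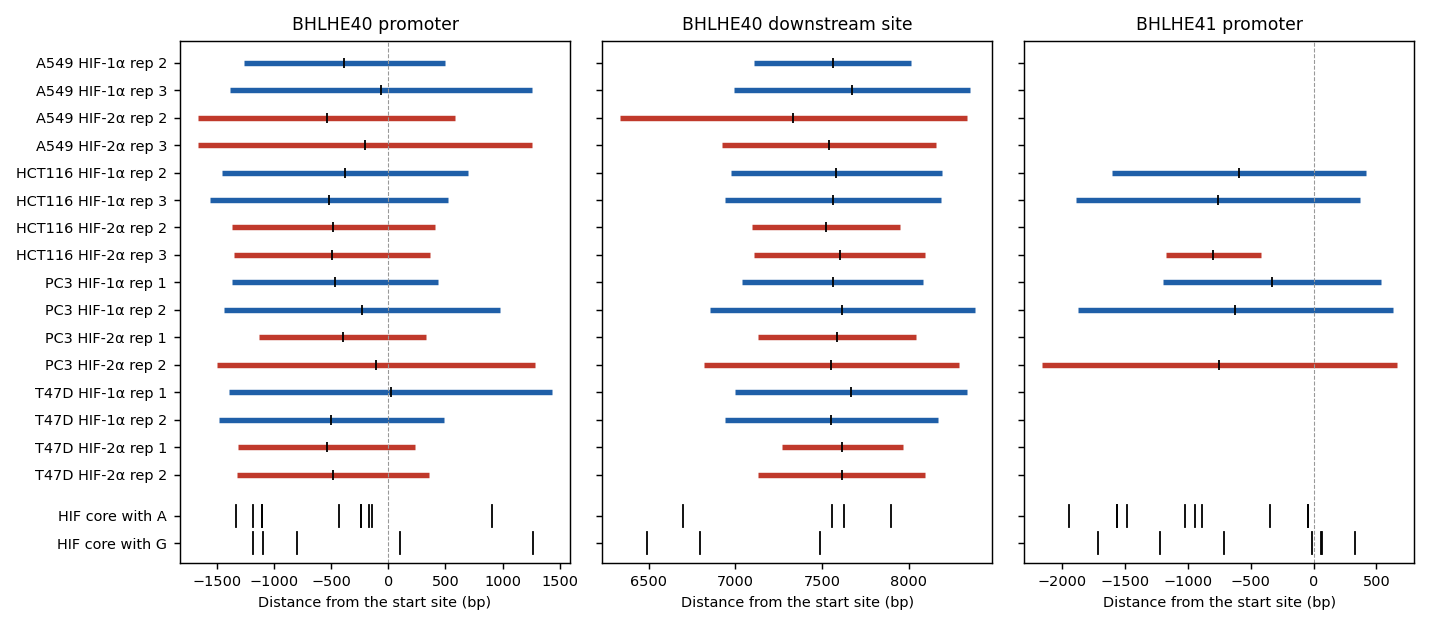
Extent of each library's peak (bars, HIF-1α blue and HIF-2α red, with the centre as a black tick) at the BHLHE40 promoter, at +7.4 kb and at the BHLHE41 promoter, as distance from the start in bp. The lower rows mark the HIF cores ACGTG ("with A") and GCGTG ("with G"), and the dashed line is the start. At +7.4 kb the centres, from 7335 to 7672 bp, lie around the cores at 7557 and 7626 bp, whereas the BHLHE40 promoter centres range from -541 to 22.5 bp.

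Farther from BHLHE40, peaks were found in few libraries. The site at +44.0 kb (chr3:5064470-5065705) had peaks in 5 libraries, 4 of them HIF-2α. Its scores in A549 HIF-2α were 305 and 247 (percentiles 86.3 and 86.6). The peaks in HCT116 HIF-1α replicate 2 (63.2), HCT116 HIF-2α replicate 2 (53.9) and PC3 HIF-2α replicate 2 (52.9) were at percentiles 31.2, 24.0 and 12.0. A549 HIF-2α was thus the one group with this site in both replicates, and the same held at +47.2 kb (chr3:5067582-5069136), with A549 HIF-2α scores of 195 and 161 (percentiles 76.0 and 75.7) and a single further peak, in PC3 HIF-1α replicate 2 (58.7, percentile 21.2). Neither A549 HIF-1α library had a peak at these sites, but those lists held 382 and 629 peaks against 1382 and 1056 for HIF-2α. A peak at +25.5 kb was found in HCT116 HIF-1α replicate 3 alone (68.1, percentile 41.3). The central 200 bp held ACGTG in 4 of 5 peaks at +44.0 kb and in 0 of 3 at +47.2 kb.

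**Figure D4:**
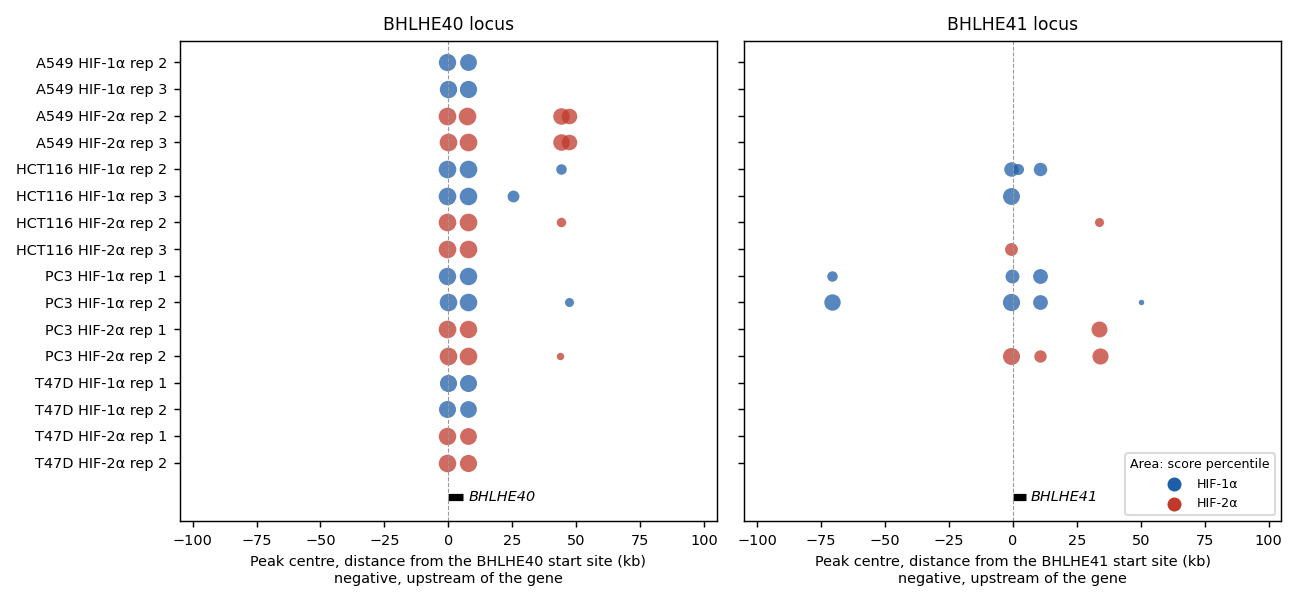
Peak centres of each of the 16 libraries (rows) by distance from the start of BHLHE40 (left) and BHLHE41 (right), in kb, with the area of a point following its score percentile and the gene drawn as a black bar. The BHLHE40 promoter and +7.4 kb site fill every row. The +44.0 and +47.2 kb sites stand out in A549 HIF-2α, and the 8 rows of A549 and T47D are empty at BHLHE41.

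At BHLHE41, peaks were found in all 8 libraries of HCT116 and PC3 and in 0 of the 8 libraries of A549 and T47D. The promoter site (chr12:26277309-26280130, 2822 bp) had a peak in 6 libraries. The HCT116 HIF-1α scores were 99.8 and 198 (percentiles 64.8 and 90.8), and the PC3 HIF-1α scores were 75.9 and 333 (59.5 and 94.2). Single peaks were found with HIF-2α, in HCT116 replicate 3 (59.9, percentile 49.6) and in PC3 replicate 2 (198, percentile 92.1). In both HIF-1α groups the replicates thus lay farther apart by percentile than any 2 of the 16 libraries did at the BHLHE40 promoter. The HIF-2α lists without the peak held 1264 (HCT116 replicate 2) and 275 (PC3 replicate 1) peaks. In the order by mean promoter percentile, BHLHE41 was number 250 over all 16 libraries, number 394 over HIF-1α and number 162 over HIF-2α. The mean itself, with no peak counted as 0, was 38.7 over HIF-1α (a peak in 4 of 8 libraries) and 17.7 over HIF-2α (in 2 of 8). The earlier place over HIF-2α thus went with the lower mean. SSPN (sarcospan), which runs in the opposite direction, overlaps this site, as does a long noncoding RNA (ENSG00000256894).

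The site at +10.6 kb from BHLHE41 (chr12:26266730-26268069) was found in both PC3 HIF-1α libraries, with scores of 86.3 and 106 (percentiles 68.4 and 67.8), in HCT116 HIF-1α replicate 2 (84.1, percentile 54.9) and in PC3 HIF-2α replicate 2 (67.1, percentile 45.6). Its sequence is rich in cores: 6 copies of ACGTG, all within 3 E-boxes, and 3 of GCGTG. Each of its 4 peaks held an E-box in the central 200 bp, against a median of 7.35% of the peaks of a library (range 3.32% to 10.2%), and no peak at the other 5 BHLHE41 sites did. The 4 peaks overlap and read largely the same sequence, so they are not independent cases. The median distance from peak centre to the nearest ACGTG was 27.2 bp here and 129 bp at the BHLHE41 promoter. The nearest coding start to this site is one of SSPN, at 7524.5 bp.

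The site at +33.9 kb (chr12:26243494-26244703) had peaks in 3 libraries, all HIF-2α. PC3 scored 82.0 and 129 (percentiles 80.4 and 81.9), and HCT116 replicate 2 scored 53.5 (percentile 21.1). None of the HIF-1α lists of these lines, which were longer (1517 to 4505 peaks, against 275 to 1290), had a peak at it. No copy of ACGTG was found in its 1210 bp, and there was 1 of GCGTG. The site at -70.8 kb (chr12:26348048-26349472) was found in both PC3 HIF-1α libraries (59.1 and 178, percentiles 30.7 and 85.3), lies 154 bp from a start of SSPN, and also lacked ACGTG. Single peaks were found at +2.0 kb in HCT116 HIF-1α replicate 2 (65.7, percentile 34.9) and at +50.1 kb in PC3 HIF-1α replicate 2 (51, percentile 3.43). The first lies within both BHLHE41 and SSPN, with a start of SSPN nearest, at 1070 bp. The second lies within RASSF8.

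The counts by group are read against all protein-coding genes. BHLHE40 had a peak of both replicates within 100 kb, and within 1000 bp, of its start in all 8 groups. The share of protein-coding genes that did within 100 kb was 4.5% in A549 HIF-1α, 8.27% in A549 HIF-2α, 40.2% in HCT116 HIF-1α, 7% in HCT116 HIF-2α, 20.2% in PC3 HIF-1α, 2.33% in PC3 HIF-2α, 8.87% in T47D HIF-1α and 2.41% in T47D HIF-2α. Within 1000 bp the shares, in the same order, were 0.752%, 0.696%, 10.7%, 0.737%, 3.93%, 0.161%, 1.77% and 0.202%. BHLHE41 met the wider window in 4 groups, those of HCT116 and PC3, and the narrower one in HCT116 HIF-1α and PC3 HIF-1α, which are the groups with the highest shares of genes. In HCT116 HIF-2α the replicates met the wider window through different sites, replicate 2 at +33.9 kb and replicate 3 at the promoter. No single BHLHE41 site had both replicates of that group. With the 275 best peaks of each library, the BHLHE41 promoter kept a peak in 2 libraries and in both replicates of 0 groups, while the BHLHE40 promoter and the +7.4 kb site kept theirs in all 16.

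The nearest peak beyond the 100 kb limit was 142877 bp from BHLHE40 (HCT116 HIF-1α replicate 2, score 61.4, percentile 28.1). The farthest one inside was at 47237 bp (A549 HIF-2α replicate 3, score 161). At BHLHE41 the farthest inside was at -70796.5 bp (PC3 HIF-1α replicate 1, score 59.1) and the nearest outside at -114516 bp (PC3 HIF-2α replicate 2, score 90.4, percentile 68.8). The limit thus fell in a stretch without peaks at both genes.

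Among 17 circadian clock genes, where BHLHE40 and BHLHE41 act, the number with a peak of both replicates within 1000 bp of a start was 3 (17.6%) in HCT116 HIF-1α, 2 (11.8%) in T47D HIF-1α, 1 each (5.88%) in A549 HIF-2α and PC3 HIF-1α, and 0 in the other 4 groups. The shares of all protein-coding genes were 10.7%, 1.77%, 0.696% and 3.93% in the groups named, in that order, and 0.161% to 0.752% in the other 4. NFIL3, a bZIP repressor of the clock output, had such a peak in 3 groups (7 libraries, percentiles 26.0 to 69.0). NR1D2, the nuclear receptor REV-ERBβ, had one in 2 groups (5 libraries, 51.0 to 81.3), and PER2, a core clock repressor, in HCT116 HIF-1α (4 libraries, 6.61 to 84.7). CIART, a repressor of CLOCK and BMAL1, had one in T47D HIF-1α (3 libraries, 62.4 to 92.1). None of these 4 had a promoter peak in all libraries, as BHLHE40 had. Within 100 kb the count of clock genes was 11 of 17 (64.7%) in HCT116 HIF-1α, where 40.2% of all protein-coding genes had such a peak (10.7% within 1000 bp), and 0 to 3 in the other groups, where 2.33% to 20.2% did. Among 10 other repressors of the HES and HEY families, relatives of BHLHE40 by their Orange domain, HES4 had a promoter peak of both replicates in 2 groups (4 libraries, 69.3 to 96.0) and HEYL in 1 (2 libraries, 31.4 to 74.9). These groups were HCT116 HIF-1α for both genes and PC3 HIF-1α for HES4, where 10.7% and 3.93% of all protein-coding genes had such a peak. The remaining 8 had none, and within 100 kb the count for this list was 7 of 10 in HCT116 HIF-1α and 0 to 4 in the other groups, against the same shares of all genes. No test was made of either list.

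The genes whose promoter percentiles over the 16 libraries were most like those of BHLHE40, by mean absolute difference, were ALDOA (2.18 percentage points), LDHA (3.18), GPI (4.06), C4orf3 (5.68) and KDM4B (5.80), each with a promoter peak in all 16. ALDOA, LDHA and GPI encode enzymes of glycolysis, and KDM4B a histone demethylase. Those most like BHLHE41 were RUNX1 (3.18, with a promoter peak in 7 libraries), DST (5.75, in 5), PAIP1 (8.85, in 5), AKAP1 (9.13, in 6) and TFAP2A (9.50, in 6). RUNX1 and TFAP2A are transcription factors. Most libraries held no BHLHE41 promoter peak and entered this comparison as 0.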

How the data were processed

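Peak lists of 16 HIF-1α and HIF-2α ChIP-seq libraries were analysed, grouped by the labels into 8 groups of 2. Per the labels and the study's methods, the authors trimmed adapters (Trim Galore 0.3.3), aligned reads to GRCh37 (BWA 0.7.5a-r405), removed poorly mapped reads (SAMtools 0.1.19), blacklisted regions (bedtools 2.17.0) and duplicates (Picard 2.0.1) and called peaks with MACS in control mode. The methods also name a second caller (T-PIC), a filter on read counts and an overlap of replicates. The deposited lists are 1 per library and hold peaks found in a single replicate, so the overlap step was not applied to them, and whether the other steps were was not tested. Pre-immune serum and input samples are described, but which of them the caller used, and its version, are not given in the sources used here. The deposited score of each peak is the caller's own, with a lowest value of 50 and no stated scale. It was used to rank peaks within a library and as a ratio within it. One alternative below also set the same cut of 74.55 for all libraries. That cut removes unlike shares of the lists, whose median scores ran from 57.15 (PC3 HIF-2α replicate 1) to 94.26 (A549 HIF-2α replicate 2).

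Peaks sharing at least 1 bp were merged across libraries. Start sites came from GENCODE release 44 mapped to GRCh37, and 29 peaks off the main chromosomes were not used for distances or motifs. Motifs were searched in the central 200 bp of peaks and in whole sites. Peak centres were compared between antibodies with two-sided exact permutation tests within cell lines, adjusted over 2 tests (Benjamini-Hochberg, threshold 0.05). No pair of the 16 lists was identical. Python 3.11.15 with numpy 2.4.6, scipy 1.17.1 and matplotlib 3.10.9 was used, and the functions were tested on simulated data. The loci and gene lists were chosen with earlier results of these data known. Named genes were BHLHE40 and BHLHE41, list members with a promoter site in at least 1 group, and the 5 genes most like each in promoter percentile, and others were named for position. Alternatives were another window (50 or 200 kb), promoter distance (500 or 2500 bp), a reciprocal overlap of 50%, a score of at least 74.55 (the median of all peaks), the 275 best peaks of each library, 1 start per gene, either replicate, the replicate block, whole peaks for motifs, and leaving out each library or cell line.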

Additional observations from a re-analysis of the deposited data

How the results depend on the processing

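The number of sites at BHLHE41 (6) became 10 with a window of 200 kb and 2 with the 275 best peaks of each library, which also left the BHLHE41 promoter with a peak in 2 libraries instead of 6. Groups with a peak of both replicates within 1000 bp of the BHLHE41 start (2) were 0 with the 275 best peaks, 0 within 500 bp and 4 when either replicate sufficed. Without 1 library at a time they were 1 to 2, by construction, since a group lost its second replicate. The mean percentile at the BHLHE40 promoter (96.4 for HIF-1α, 99.2 for HIF-2α) was 92.6 and 97.9 among peaks scoring at least 74.55, and 85.8 and 98.3 among the 275 best. Leaving out 1 library at a time, the difference in peak centre was 26.2 to 156 bp at the promoter and 25 to 76.2 bp at +7.4 kb, where leaving out T47D HIF-1α replicate 2 (64.6 bp, exact permutation p = 0.0432, unadjusted) was the one setting past the threshold. In whole peaks, 57 of 58 held GCGTG (98.3%, against a library median of 74.8% of all peaks) and 29 held CACGTG (against a median of 26.2%). These shares depend on width, and the BHLHE40 promoter peaks were 1464 to 2924 bp wide, against library median widths of 452 to 1326 bp. They also repeat sites: 16 of the 57 and 16 of the 29 lay at the BHLHE40 promoter, and a further 16 of the 57 at +7.4 kb. In the central 200 bp of the 58 peaks, 24 held GCGTG (41.4%, against 38.1%) and 6 held CACGTG (10.3%, against 7.35%). With the replicate block, the differences were 91.2 bp (exact permutation p = 0.281) and 50.6 bp (p = 0.195). In the main test the replicate numbers were not treated as pairs. The correlation of replicate differences between antibodies was 0.297 to 0.368 in A549, PC3 and T47D and 0.0778 in HCT116. Pairing is thus not excluded, and the replicate block gives the result under it. Read depth is not in the lists, and the length of a list limits what an absent peak shows.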
